A study of Homo sapiens with 12 samples.

Results

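Respiratory complex I was followed here through 45 genes named for its subunits in A549 cells, a line derived from a human lung adenocarcinoma. The genes were every protein-coding gene named NDUFA, NDUFB, NDUFC, NDUFS, NDUFV or NDUFAB plus a number, 38 genes of the nuclear genome, and the 7 MT-ND genes of the mitochondrial genome, out of 60617 genes in the count table. The assembly factors named NDUFAF were left out of this set and are described apart. NDUFA4 was kept among the 38 nuclear genes by its name, although it is now counted to complex IV. All 45 genes passed the filter on low counts. RNA was sequenced in 12 libraries, in 4 groups of 3. The combined group carried the YTHDF1 knockout and received small interfering RNA (siRNA) against ARID1A. The YTHDF1 KO group carried the knockout alone, the siARID1A group received the siRNA alone, and the WT group had neither. All groups were A549 cells grown in medium with serum. YTHDF1 is a cytoplasmic protein that binds N6-methyladenosine in RNA, and ARID1A is the DNA-binding subunit of a SWI/SNF chromatin remodelling complex. The sample titles describe the YTHDF1 arm as a knockdown where the genotype field says knockout, and the labels used here name neither a clone, nor a time after transfection, nor a control siRNA.

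Complex I takes electrons from NADH, passes them along a chain of iron-sulfur clusters to ubiquinone and pumps protons across the inner mitochondrial membrane. Its peripheral arm consists of the N module, which binds NADH, and the Q module, where ubiquinone is reduced, and both are built only from nuclear-encoded subunits. The membrane arm is built around the mitochondrially encoded subunits, of which ND2, ND4 and ND5 resemble antiporters, ND1 forms part of the ubiquinone site, and ND3, ND4L and ND6 lie between them. Most subunits are accessory: they are not part of the catalytic core and mainly stabilise the complex or help it to assemble. Mitochondrial mRNAs are cut from long transcripts that cover almost the whole genome, MT-ND6 being the one MT-ND gene read from the other strand. One mRNA holds both MT-ND4L and MT-ND4, whose reading frames overlap. The place where the 2 frames meet is given here because a read across it cannot be given to 1 gene alone, with the 7 shared bases in capitals (GENCODE 29 transcripts, GRCh38, forward strand).
MT-ND4L, last 30 bases, chrM:10737-10766: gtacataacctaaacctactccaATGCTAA
MT-ND4, first 30 bases, chrM:10760-10789: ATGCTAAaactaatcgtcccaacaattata

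The targeted genes followed the labels. YTHDF1 averaged 30.9 CPM (counts relative to the library total, the totals scaled with TMM factors) in the combined libraries, 24.8 in the YTHDF1 KO libraries, 97.8 in the siARID1A libraries and 88.2 in the WT libraries. ARID1A averaged 54.2, 160.6, 42.5 and 163.9 CPM in the same order of groups. Against WT, ARID1A had a log2 fold change of -1.595 in the combined group and -1.948 with siARID1A. That of YTHDF1 was -1.512 in the combined group and -1.827 with YTHDF1 KO. Library totals ran from 30220717 to 45042635 counts. Of 5 epithelial markers, KRT8 averaged 1804 CPM in the combined, 1483 in the YTHDF1 KO and 3617 in the siARID1A libraries, against 4796 CPM in the WT libraries. KRT18 averaged 1126, 912, 2062 and 2285 CPM in the same order, CDH1 109, 41.6, 170.5 and 104 CPM and EPCAM 1.66, 0.784, 8.14 and 3.51 CPM, while KRT19 was at most 1.02 CPM. The 5 blood markers and the 3 endothelial markers averaged at most 0.886 CPM in any group. Of the stromal markers, COL3A1 averaged 5.78 CPM in the combined and 5.87 CPM in the YTHDF1 KO libraries, against 0.417 CPM in the siARID1A and 0.174 CPM in the WT libraries. COL1A1 averaged 28.8 to 43.1 CPM in every group, and DCN was at most 0.269 CPM. The part of these marker differences in the results was not tested.

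Per length of mRNA, the MT-ND genes stood far above the nuclear ones. In the WT libraries MT-ND4 averaged 7363 CPM per kilobase, followed by MT-ND1 at 4184, MT-ND2 at 3467 and MT-ND4L at 3162. MT-ND3 at 1509, MT-ND5 at 1449 and MT-ND6 at 1289 CPM per kilobase made up the lower end. The ranges of the WT libraries overlapped among MT-ND1, MT-ND2 and MT-ND4L and among MT-ND3, MT-ND5 and MT-ND6. The highest nuclear genes in WT were NDUFS5 at 157 CPM per kilobase, NDUFB10 at 146 and NDUFS8 at 141. The lowest were NDUFA7 at 0.532, NDUFV2 at 1.36, NDUFA9 at 1.64 and NDUFA13 at 1.86 CPM per kilobase. Since the lengths come from the transcript with the longest coding sequence in GENCODE 29, the order rests on that choice of transcript.

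WT replicate 2 stood apart in nearly every gene of the complex. It lay below both other WT libraries in 33 of the 38 nuclear genes (86.8%) and in all 7 MT-ND genes, against 35% of all 18524 genes tested. On the log2 CPM scale its median difference from the mean of WT replicates 1 and 3 was -0.45 over the nuclear genes and -0.75 over the MT-ND genes, and 0.007 over all genes tested. MT-ND3 was the most displaced, at -1.67, and among nuclear genes NDUFA3 at -0.91, NDUFA1 at -0.81 and NDUFS6 at -0.78. NDUFA10 at -0.075, NDUFA13 at -0.089 and NDUFA5 at -0.095 were hardly displaced, and NDUFA11 at 0.13 lay above both. The shift was shared by the other complexes: WT replicate 2 was below both other WT libraries in 9 of 9 genes of complex III, 10 of 10 of complex IV, 14 of 15 of ATP synthase and 6 of 6 other mitochondrial mRNAs. It was not shared by genes of mitochondrial transcription and RNA handling, of which 10 of 24 were below both, with a median difference of 0.023. Its mitochondrial genes held 4.85% of all counts. In WT replicates 1 and 3 that share was 7.90% and 8.23%, and in the 9 libraries outside WT it ran from 6.81% to 7.75%. The shift also went with transcript length: with protein-coding genes split into 4 equal groups by mRNA length, the group with the shortest mRNAs (207 to 1964 bases) had a median difference of -0.14, against 0.003, 0.046 and 0.043 in the others. Of the 38 nuclear genes, 30 belonged to the group with the shortest mRNAs, with a median of -0.50. The part of library quality, of handling and of mRNA length in this shift was not tested. Because WT replicate 2 lowers the WT mean and widens its spread, the counts against WT are given with and without it.

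**Figure D1:**
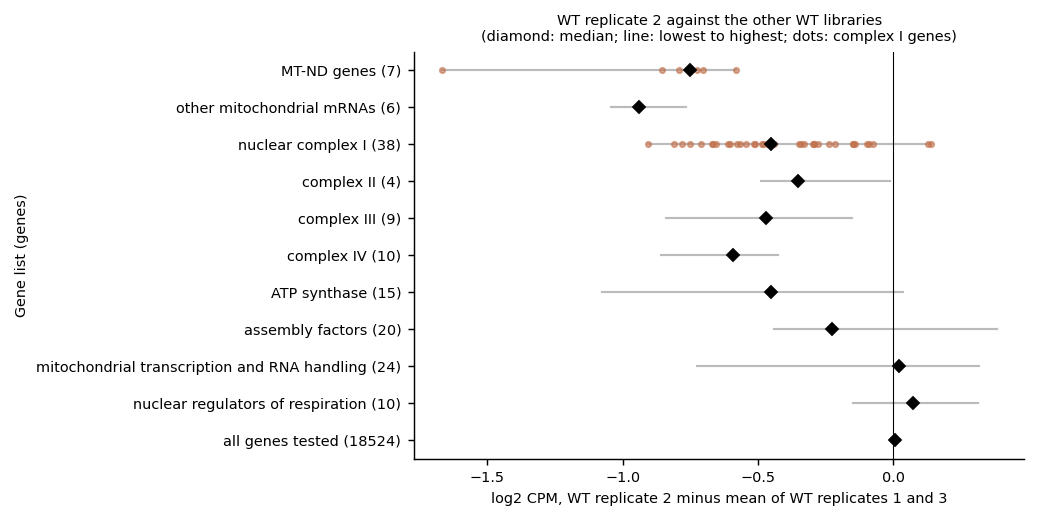
The x axis gives the log2 CPM of WT replicate 2 minus the mean of WT replicates 1 and 3, and each row is a list of genes with its number. Diamonds are medians, lines run from the lowest to the highest gene and dots are single complex I genes. The MT-ND and nearly all nuclear complex I genes sit left of 0, with medians of -0.75 and -0.45, whereas all genes tested centre on 0.007.

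The MT-ND genes together took 19380 to 20440 CPM in the combined libraries, 21820 to 23040 in the YTHDF1 KO libraries and 19870 to 21410 in the siARID1A libraries, against 15520 CPM in WT replicate 2 and 25820 and 26230 CPM in the other WT libraries. The nuclear genes together took 1752 to 1965 CPM in the combined, 1786 to 1957 in the YTHDF1 KO and 1843 to 1885 in the siARID1A libraries, against 1522 to 2103 CPM in the WT libraries. The ratio of MT-ND to nuclear counts was 10.4, 10.3 and 11.1 in the combined libraries, 12.3, 11.8 and 12.1 in the YTHDF1 KO libraries and 11.2, 10.6 and 11.4 in the siARID1A libraries, against 12.3, 10.2 and 13.5 in the WT libraries. The YTHDF1 KO libraries were thus all above the combined and siARID1A libraries in this ratio, while the WT libraries spanned the whole range. In RNA from whole cultures, a lower level in every cell and a lower number of cells with the RNA cannot be told apart.

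Among the MT-ND genes, the change that stood out with YTHDF1 KO was in MT-ND2, one of the antiporter-like proton pumps. MT-ND2 (ENSG00000198763, chrM:4470-5511) had 4273, 3946 and 3921 CPM in the combined libraries, 4592, 4882 and 4567 CPM in the YTHDF1 KO libraries and 3019, 2970 and 3331 CPM in the siARID1A libraries, against 4122, 2515 and 4199 CPM in the WT libraries. All YTHDF1 KO libraries lay above all WT libraries, the siARID1A libraries were the lowest apart from WT replicate 2, and the combined libraries lay between YTHDF1 KO and siARID1A. The log2 fold change of YTHDF1 KO against WT was 0.37 ± 0.24 (SE), adjusted p = 0.033, in edgeR's quasi-likelihood test with Benjamini-Hochberg adjustment over all genes tested, which gives the adjusted p-values throughout. This was the 1 call among the 7 MT-ND genes in that comparison (14.3%), in which 40.4% of all genes tested passed the threshold of 0.05. The call was lost without combined 1, YTHDF1 KO 1, 2 or 3, or siARID1A 2 or 3 (adjusted p 0.0505 to 0.101), and with chromosomes 2 and 9 left out of the scaling, no filter on low counts or only the compared groups fitted (adjusted p 0.052 to 0.129). It stayed when WT replicate 2 was left out, at a log2 fold change of 0.18, and 5 of the other MT-ND genes were then lower than WT.

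MT-ND1, which forms part of the ubiquinone site, had 3519, 3195 and 3248 CPM in the combined libraries, 3404, 3726 and 3379 CPM in the YTHDF1 KO libraries and 4055, 3821 and 4047 CPM in the siARID1A libraries, against 4642, 2750 and 4608 CPM in the WT libraries. Every library outside WT lay below WT replicates 1 and 3 and above WT replicate 2. MT-ND4 had 8414, 8049 and 7942 CPM in the combined libraries, 9278, 9761 and 9225 CPM in the YTHDF1 KO libraries and 8176, 7938 and 8618 CPM in the siARID1A libraries, against 11480, 7160 and 11800 CPM in the WT libraries. MT-ND4 had the same pattern, with WT replicate 2 the lowest of the 12 libraries and the other WT libraries the highest. In the combined group its log2 fold change against WT was -0.32 ± 0.24 (SE), adjusted p = 0.0386, the 1 call of 7 in a comparison where 51.5% of all genes passed. That call was lost without combined 1, 2 or 3, YTHDF1 KO 3, siARID1A 2 or 3, or WT 1 or 3 (adjusted p 0.0502 to 0.221), and with library totals as the only scaling, only the compared groups fitted or a replicate block (adjusted p 0.0558 to 0.188).

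MT-ND4L, read from the same mRNA as MT-ND4, had 685, 749 and 761 CPM in the combined libraries, 890, 824 and 879 CPM in the YTHDF1 KO libraries and 753, 661 and 743 CPM in the siARID1A libraries, against 1092, 609.9 and 1116 CPM in the WT libraries. Its log2 fold changes against WT were -0.36 in the combined group, -0.12 with YTHDF1 KO and -0.39 with siARID1A, none of which passed with all 12 libraries. MT-ND3 had 653, 587 and 552 CPM in the combined libraries, 677, 682 and 651 CPM in the YTHDF1 KO libraries and 558, 597 and 640.3 CPM in the siARID1A libraries, against 689, 213 and 665 CPM in the WT libraries. WT replicate 2 lay far below every other library, the widest gap of the 7 genes, and the other WT libraries were close to those of YTHDF1 KO.

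MT-ND6, the small membrane subunit from the other strand, was the MT-ND gene that rose with siARID1A. It had 699.6, 594 and 633 CPM in the combined libraries, 589, 650.2 and 591 CPM in the YTHDF1 KO libraries and 918, 927 and 939 CPM in the siARID1A libraries, against 705, 508 and 816 CPM in the WT libraries. The siARID1A libraries lay above all other libraries, and the other 3 groups overlapped. The log2 fold change of siARID1A against WT was 0.46 ± 0.20 (SE), adjusted p = 0.00401, again the 1 call of 7, in a comparison where 45.2% of all genes passed. It was 0.31 without WT replicate 2, and the call held in all 21 other settings tried. Against siARID1A the combined group was lower, at -0.53 ± 0.070 (SE), adjusted p = 0.00153, and this call too held in all 21. The end of MT-ND6 (chrM:14149-14673) abuts the end of MT-ND5 (chrM:12337-14148) on the opposite strand. The strand setting of the counting is not given in the sources used here, so reads from the antisense of either gene cannot be told apart from its own.

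MT-ND5, the third antiporter-like subunit, had 2200, 2278 and 2323 CPM in the combined libraries, 2602, 2520 and 2524 CPM in the YTHDF1 KO libraries and 3221, 2952 and 3090 CPM in the siARID1A libraries, against 3090, 1764 and 3024 CPM in the WT libraries. The siARID1A libraries lay above those of the combined and YTHDF1 KO groups and overlapped those of WT. In the comparison of the combined group with siARID1A, where 35.4% of all genes passed, 3 of the 7 MT-ND genes did (42.9%). MT-ND5 was lower, at a log2 fold change of -0.45 ± 0.043 (SE), adjusted p = 0.0267, and MT-ND2 higher, at 0.38 ± 0.065 (SE), adjusted p = 0.0333, beside MT-ND6. The call of MT-ND5 was lost without combined 1, 2 or 3 or siARID1A 1, 2 or 3 (adjusted p 0.0567 to 0.101), and with no filter on low counts (adjusted p = 0.124). That of MT-ND2 was lost without combined 1, 2 or 3 or siARID1A 1, 2 or 3 (adjusted p 0.061 to 0.122), and with chromosomes 2 and 9 left out of the scaling, no filter on low counts or DESeq2 (adjusted p 0.0502 to 0.0752). Against YTHDF1 KO, where 23.4% of all genes passed, the combined group had 0 MT-ND genes past the threshold by edgeR or DESeq2 and 0 at an unadjusted p under 0.05. The spread in this fit was shared over all 12 libraries, WT replicate 2 among them. Without that library 5 of 7 passed, all lower, where 26.6% of all genes passed. With only the compared groups fitted 5 passed, and calls over all genes were 5912, against 4331 in the fit of all 12 libraries. The median log2 fold change of the 7 genes was -0.176 without WT replicate 2 and -0.169 with it, so the count of 0 does not show that the groups were alike.

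Without WT replicate 2 most MT-ND genes lay below WT in each group, and all 7 did in the combined group. Against the 2 remaining WT libraries, 6 of 7 were lower in the combined group, 5 were lower and 1 higher with YTHDF1 KO, and 4 were lower and 1 higher with siARID1A, where 48.5%, 37.6% and 41.4% of all genes passed. Their median log2 fold change was -0.43 in the combined group, -0.29 with YTHDF1 KO and -0.20 with siARID1A, against medians of 0.003, 0.002 and 0.009 over all genes. MT-ND4L had log2 fold changes of -0.59 in the combined group, -0.34 with YTHDF1 KO and -0.60 with siARID1A, and in the same order MT-ND4 had -0.51, -0.29 and -0.48. MT-ND1 had -0.47, -0.39 and -0.20. MT-ND3 turned its direction in the combined group, at -0.17 without WT replicate 2 and 0.19 with it. The combined group also had 5 of 7 lower than YTHDF1 KO (26.6% of all genes passed), among them MT-ND4 at -0.22 and MT-ND5 at -0.18. Against siARID1A it had 3 lower and 1 higher (37.6% of all genes passed). These 3 comparisons with WT share their WT libraries, and the removal of 1 library was applied to all of them at once.

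**Figure D2:**
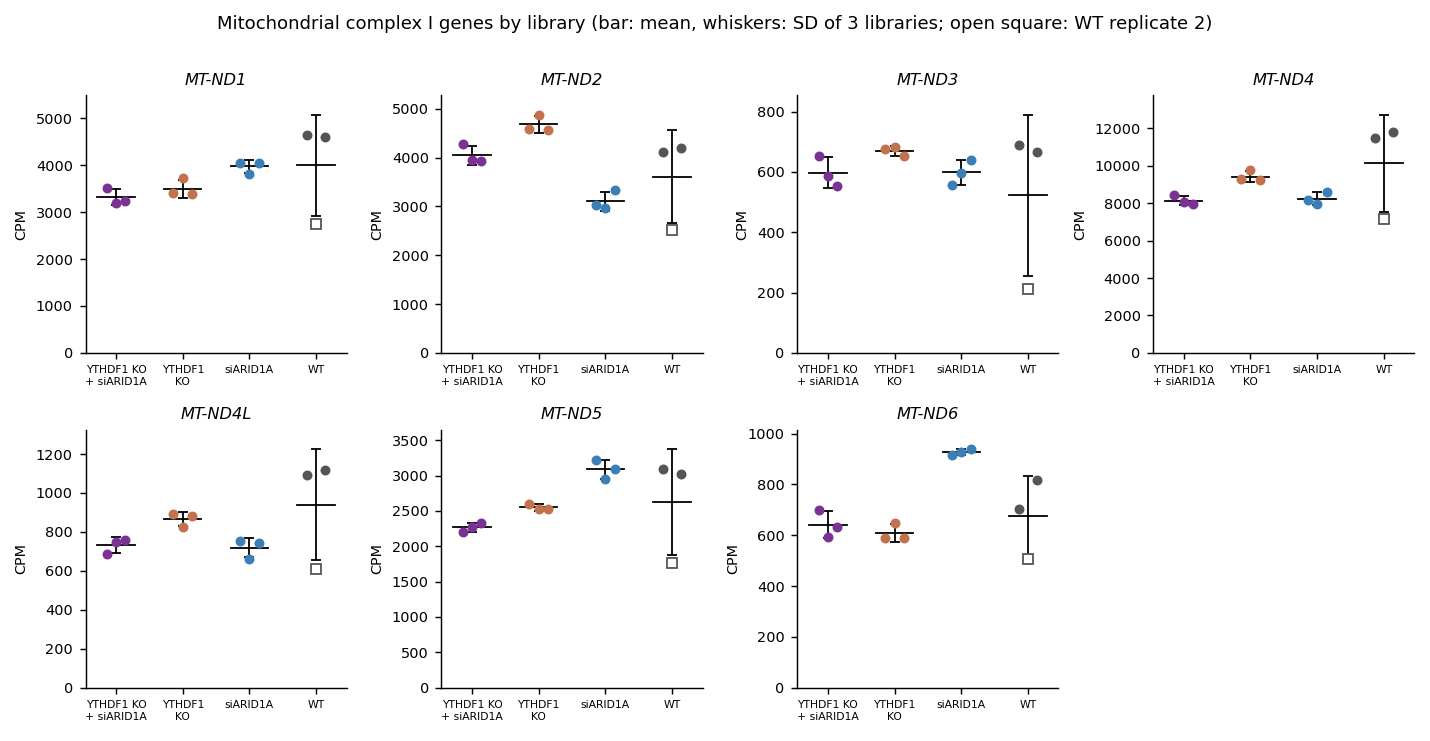
Each panel shows 1 mitochondrial complex I gene, with CPM on the y axis and the 4 groups on the x axis. Dots are libraries, bars are means and whiskers the SD of 3 libraries, and the open square is WT replicate 2. The open square is the lowest point of every panel, and in MT-ND6 the siARID1A libraries (918 to 939 CPM) are the highest.

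To set aside differences in the total of mitochondrial RNA, which WT replicate 2 shows, each MT-ND gene was also expressed as its share of the 13 mitochondrial mRNAs, and tested with those totals as the library sizes of mitochondrial genes. This scaling was chosen after the data were seen. It asks how mitochondrial mRNA is divided among genes, not how much there is, so that a rise of 1 share lowers the others. On this scale the relative gap between WT replicate 2 and the other WT libraries was widest, among the MT-ND genes, in MT-ND3, where it held 0.517%, against 0.944% and 0.911% in WT replicates 1 and 3.

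The share of MT-ND2 was higher with the knockout whether or not siARID1A was added. It was 7.26, 6.86 and 7.08% in the combined libraries, 7.25, 7.300 and 7.34% in the YTHDF1 KO libraries and 5.38, 5.45 and 5.72% in the siARID1A libraries, against 5.65, 6.11 and 5.76% in the WT libraries. The combined and YTHDF1 KO libraries did not overlap the siARID1A and WT libraries. On this scale the log2 fold change was 0.28 ± 0.042 (SE), adjusted p = 0.00178 in the combined group and 0.32 ± 0.035 (SE), adjusted p = 0.000535 with YTHDF1 KO, both against WT. The combined group also lay above siARID1A, at 0.36 ± 0.036 (SE), adjusted p = 0.000205. MT-CYB, a complex III subunit and no member of the set, was also higher in both knockout groups. Its share averaged 7.33% in the combined, 7.44% in the YTHDF1 KO and 4.96% in the siARID1A libraries, against 5.85% in the WT libraries. Unlike MT-ND2, which did not pass with siARID1A against WT (-0.082), MT-CYB was lower there, at -0.24 ± 0.041 (SE), adjusted p = 0.00607.

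MT-ND5 and MT-ND6, which lie next to each other, took larger shares with siARID1A than in WT, and the combined group lay below siARID1A in both. MT-ND5 took 3.74, 3.96 and 4.19% in the combined libraries, 4.11, 3.77 and 4.06% in the YTHDF1 KO libraries and 5.74, 5.41 and 5.31% in the siARID1A libraries, against 4.23, 4.29 and 4.15% in the WT libraries. The siARID1A libraries lay above every other library. MT-ND6 took 1.19, 1.03 and 1.14% in the combined libraries, 0.930, 0.972 and 0.950% in the YTHDF1 KO libraries and 1.64, 1.700 and 1.61% in the siARID1A libraries, against 0.966, 1.24 and 1.12% in the WT libraries. Again the siARID1A libraries were the highest 3 of 12. The log2 fold changes of siARID1A against WT were 0.38 ± 0.037 (SE), adjusted p = 0.00012, for MT-ND5 and 0.58 ± 0.11 (SE), adjusted p = 2.29e-06, for MT-ND6. Those of the combined group against siARID1A were -0.47 ± 0.059 (SE), adjusted p = 1.02e-05, and -0.56 ± 0.065 (SE), adjusted p = 4.55e-06. The effect of siARID1A in YTHDF1 KO cells minus its effect in WT cells, called the interaction here, passed for both, at -0.38 ± 0.072 (SE), adjusted p = 0.00925, and -0.34 ± 0.12 (SE), adjusted p = 0.0409. Leaving out WT replicate 2 gave -0.40 and -0.42, and both passed. These 2 were the MT-ND genes past the threshold for the interaction on this scale, where 17.1% of all genes passed.

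The share of MT-ND3 was not past the threshold in any comparison with all 12 libraries. Its log2 fold change against WT was 0.40 in the combined group, 0.40 with YTHDF1 KO and 0.43 with siARID1A, with WT replicate 2 far below the other WT libraries. MT-ND1 averaged 5.80% in the combined, 5.46% in the YTHDF1 KO and 7.06% in the siARID1A libraries, against 6.45% in the WT libraries. It was lower with YTHDF1 KO than in WT, at -0.24 ± 0.030 (SE), adjusted p = 0.00643, and lower in the combined group than with siARID1A, at -0.29 ± 0.036 (SE), adjusted p = 0.00189. MT-ND4 averaged 14.2%, 14.7% and 14.6% in the combined, YTHDF1 KO and siARID1A libraries, against 16.4% in the WT libraries, and it was lower in the combined group, at -0.21 ± 0.045 (SE), adjusted p = 0.0149. MT-ND4L was lower than in WT in the combined group, at -0.23 ± 0.072 (SE), adjusted p = 0.013, and with siARID1A, at -0.24 ± 0.044 (SE), adjusted p = 0.0138. In all, 3 of 7 passed on this scale in each comparison with WT (2 higher and 1 lower with siARID1A, 1 higher and 2 lower in the others), against 51.5% of all genes for the combined group, 40.5% for YTHDF1 KO and 45.2% for siARID1A. The 1 called gene of the YTHDF1 KO comparison not yet given was MT-ND6, at -0.22 ± 0.11 (SE), adjusted p = 0.0313. It did not pass without WT replicate 2, at a log2 fold change of -0.13. Between the combined group and YTHDF1 KO, MT-ND6 alone passed on this scale, at 0.24 ± 0.064 (SE), adjusted p = 0.0327, where 23.4% of all genes did. Between the combined group and siARID1A, 1 was higher and 3 lower, where 35.5% of all genes passed. With WT replicate 2 left out, 2 were higher and 2 lower in the combined group, 2 and 1 with YTHDF1 KO and 4 and 1 with siARID1A, against 48.4%, 37.6% and 41.4% of all genes. The gene that joined in all 3 was MT-ND3, at 0.17, 0.17 and 0.20, and MT-ND1 joined with siARID1A, at 0.16.

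**Figure D3:**
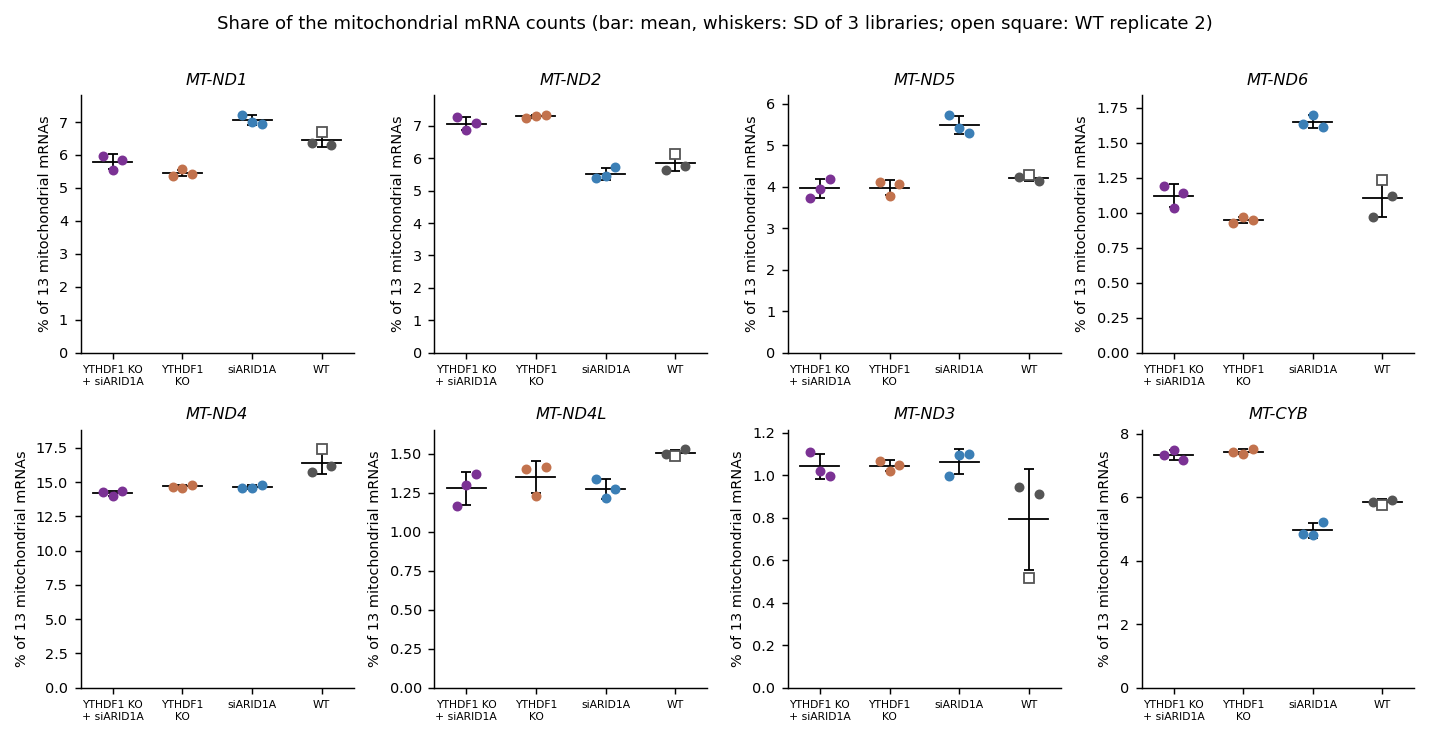
The y axis of each panel is the percentage of the counts of the 13 mitochondrial mRNAs taken by 1 gene, and the x axis the 4 groups. Dots are libraries, bars means, whiskers the SD of 3 libraries and the open square WT replicate 2. The share of MT-ND2 is higher in both knockout groups (7.06% and 7.30%) than with siARID1A or in WT (5.52% and 5.84%), and those of MT-ND5 and MT-ND6 are highest with siARID1A (5.49% and 1.65%).

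The nuclear genes did not move as a set. With YTHDF1 KO, 4 of 38 were higher and 4 lower than in WT (21.1%), where 40.4% of all genes passed, 19.6% higher and 20.8% lower. With siARID1A 5 were higher and 7 lower (31.6%), where 45.2% passed, 22.1% higher and 23% lower. In the combined group 7 were higher and 7 lower (36.8%), where 51.5% passed, 25.6% higher and 25.9% lower. The median log2 fold change over the 38 genes was 0.073 in the combined group, 0.057 with YTHDF1 KO and 0.009 with siARID1A, against -0.005, -0.012 and -0.011 over all genes tested. Without WT replicate 2 these medians turned to -0.091, -0.081 and -0.10. The counts were then 4 higher and 7 lower in the combined group, 3 and 8 with YTHDF1 KO and 4 and 9 with siARID1A, where 48.5%, 37.6% and 41.4% of all genes passed. With no scaling beyond library totals, which moved the median of all genes by 0.092 with YTHDF1 KO and by 0.14 in the combined group, 11 were higher and 3 lower with YTHDF1 KO and 14 higher and 4 lower in the combined group. Over all genes, that scaling gave 7782 calls with YTHDF1 KO, of which 61.2% were higher. In the combined group it gave 9578, of which 63.4% were higher. Between the combined group and YTHDF1 KO, 1 was higher and 2 lower (7.89%), where 23.4% of all genes passed, 12.5% higher and 10.9% lower. Between the combined group and siARID1A, 5 were higher and 3 lower (21.1%), where 35.4% passed, 18.2% higher and 17.2% lower.

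**Figure D4:**
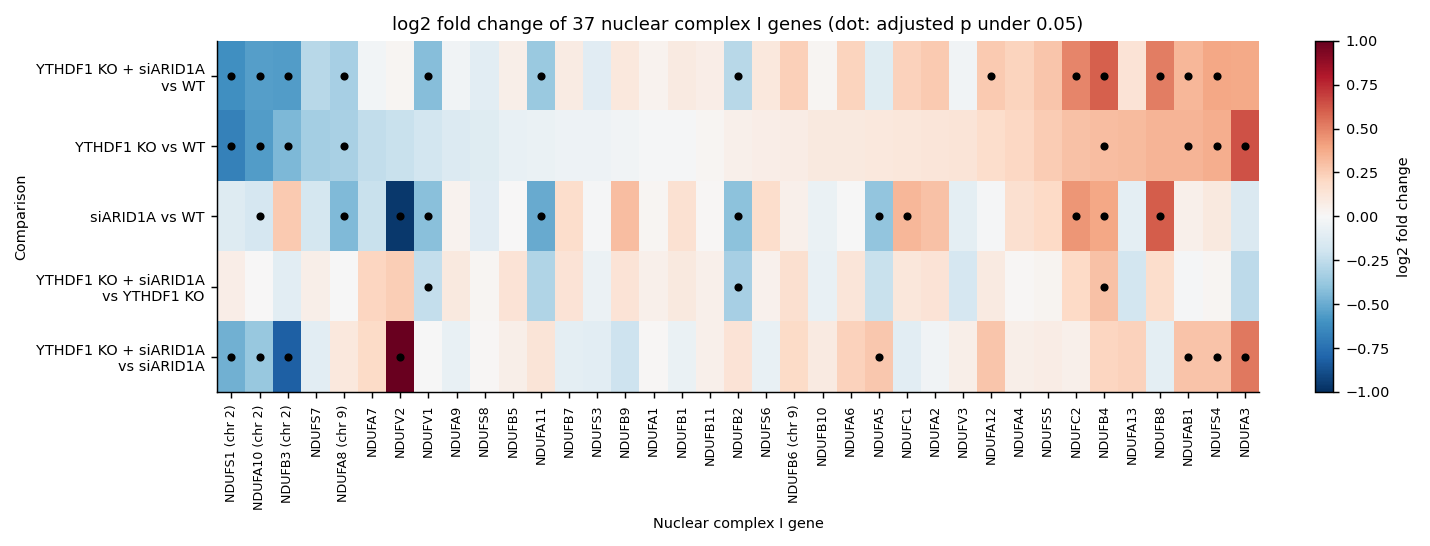
Columns are 37 of the 38 nuclear genes ordered by their log2 fold change with YTHDF1 KO, rows are the 5 pairwise comparisons, and the colour scale runs from -1 to 1 in log2 units. A dot marks an adjusted p under 0.05. The 4 genes that were lower with YTHDF1 KO are among the 5 columns at the left end and lie on chromosomes 2 and 9, at log2 fold changes of -0.33 to -0.68. Of all genes tested, 20.8% were lower in that comparison.

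With all 12 libraries, the 4 nuclear genes that were lower with YTHDF1 KO lay on chromosomes 2 and 9, where the set has 5 genes. The 4 higher ones were among the 33 on other chromosomes. Of all genes tested, 20.8% were lower and 19.6% higher. Over all tested genes of a chromosome, the median log2 fold change was -0.41 on chromosome 2 and -0.36 on chromosome 9. Genes outside the set thus fell there too. The same comparison without WT replicate 2 had 4 lower genes on chromosomes 2 and 9, and 3 higher and 4 lower on other chromosomes. Of all genes, 37.6% then passed in either direction. NDUFS1 (chr2:206114817-206159603, minus strand), the largest core subunit of the N module and carrier of several iron-sulfur clusters, had 75.1, 75.1 and 71.98 CPM in the combined libraries, 72.5, 69.6 and 70.2 CPM in the YTHDF1 KO libraries and 107, 100.1 and 103 CPM in the siARID1A libraries, against 124, 102 and 114 CPM in the WT libraries. The combined and YTHDF1 KO libraries all lay below the siARID1A and WT libraries, with no overlap. Its log2 fold change was -0.61 ± 0.082 (SE), adjusted p = 7.51e-08, in the combined group and -0.68 ± 0.082 (SE), adjusted p = 2.12e-08, with YTHDF1 KO, and both held in all 21 other settings tried.

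NDUFA10 (chr2:239892450-240025402, minus strand), an accessory subunit on the matrix face of the membrane arm and a relative of nucleoside kinases, had 79.9, 80.6 and 80.2 CPM in the combined libraries, 80.02, 81.01 and 78.6 CPM in the YTHDF1 KO libraries and 107, 107 and 99.98 CPM in the siARID1A libraries, against 122, 114 and 117 CPM in the WT libraries. The knockout groups again did not overlap the others, and the 3 siARID1A libraries lay just below WT. Against WT the log2 fold change was -0.55 ± 0.030 (SE), adjusted p = 6.42e-08, in the combined group, -0.56 ± 0.033 (SE), adjusted p = 7.71e-08, with YTHDF1 KO, and -0.17 ± 0.043 (SE), adjusted p = 0.0291, with siARID1A. The siARID1A call was lost without siARID1A 3 or WT 1 (adjusted p 0.0847 to 0.12), and with RLE factors, library totals as the only scaling, no filter on low counts or only the compared groups fitted (adjusted p 0.0563 to 0.172).

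NDUFB3 (chr2:201071433-201085750, plus strand), a small membrane-arm subunit of the ND5 module, had 27.3, 22.3 and 18.4 CPM in the combined libraries, 23.6, 24.9 and 24.5 CPM in the YTHDF1 KO libraries and 39.2, 40.1 and 40.4 CPM in the siARID1A libraries, against 38.1, 28.4 and 33.5 CPM in the WT libraries. Both knockout groups lay below WT, and siARID1A lay above all WT libraries without passing the test. The log2 fold change against WT was -0.56 ± 0.21 (SE), adjusted p = 0.000237, in the combined group and -0.45 ± 0.13 (SE), adjusted p = 0.00246, with YTHDF1 KO. Against siARID1A the combined group was lower by more, at -0.82 ± 0.17 (SE), adjusted p = 3.65e-06. NDUFB3 has 19.8% of its exon bases under FAM126B on the other strand.

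NDUFA8 (chr9:122144058-122159819, minus strand), a subunit of the ND1 module on the intermembrane-space side, had 41.4, 42.4 and 37.7 CPM in the combined libraries, 37.5, 43.95 and 40.4 CPM in the YTHDF1 KO libraries and 38.4, 34.98 and 39.2 CPM in the siARID1A libraries, against 60.1, 40.7 and 51.9 CPM in the WT libraries. It was low in all 3 changed groups, which overlapped each other, and WT replicate 2 (40.7 CPM) lay within the range of the combined and YTHDF1 KO libraries. NDUFA8 had a log2 fold change against WT of -0.33 ± 0.17 (SE), adjusted p = 0.0114, in the combined group, -0.33 ± 0.18 (SE), adjusted p = 0.016, with YTHDF1 KO and -0.44 ± 0.17 (SE), adjusted p = 0.00162, with siARID1A. Leaving WT replicate 2 out gave -0.46, -0.45 and -0.56. The call in the combined group was lost without combined 3 or WT 1 (adjusted p 0.0597 to 0.123), and with library totals as the only scaling (adjusted p = 0.108). That with YTHDF1 KO was lost without YTHDF1 KO 1 or WT 1 (adjusted p 0.0837 to 0.158), and with library totals as the only scaling (adjusted p = 0.0615).

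NDUFB6 (chr9:32552999-32573184, minus strand), a subunit of the ND4 module and the fifth gene on these chromosomes, had 60.4, 54.2 and 53.6 CPM in the combined libraries, 48.3, 56.9 and 44.9 CPM in the YTHDF1 KO libraries and 45.5, 48.7 and 53.1 CPM in the siARID1A libraries, against 51.7, 37.1 and 53.9 CPM in the WT libraries. The groups overlapped, and no comparison passed, with log2 fold changes of 0.24 in the combined group, 0.077 with YTHDF1 KO and 0.049 with siARID1A. It lies on the short arm of chromosome 9, NDUFA8 on the long arm.

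The genes around these members were shifted in the knockout groups as well. Of the 50 tested genes on each side (78 in all for NDUFA10, near the end of its chromosome), the median log2 fold change with YTHDF1 KO was -0.79 around NDUFA10, -0.49 around NDUFS1, -0.46 around NDUFB3 and -0.48 around NDUFA8, and 0.080 around NDUFB6. NDUFS1 and NDUFB3 lie close to each other on chromosome 2, so the genes counted around them can be partly the same. The medians over whole chromosomes were -0.41 over 1231 genes of chromosome 2 and -0.36 over 712 genes of chromosome 9. With siARID1A the genes around NDUFA8 had a median of -0.50 and those around NDUFB6 -0.037, while the medians were -0.090 around NDUFA10, -0.006 around NDUFS1 and 0.013 around NDUFB3. NDUFS1 itself was at -0.13 and NDUFB3 at 0.26 with siARID1A, neither past the threshold. In the combined group the medians were -0.79 around NDUFA10, -0.46 around NDUFS1, -0.38 around NDUFB3, -0.54 around NDUFA8 and 0.099 around NDUFB6. The part of these neighbourhoods in the fall of the 4 genes was not tested, and the number of copies of each chromosome was not measured here.

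The sequences just before the start sites of these 4 genes are given because they fell together, beside that of NDUFB4, which among the nuclear genes that rose in the combined group had the smallest p. Each runs over the 160 bases before RefSeq's start site in GRCh38.p14, 5′ to 3′ on the strand of the gene, with matches to the motifs named below in capitals. For the 4 genes that fell and for NDUFB4, GENCODE 29 starts the gene further upstream, so that all or part of the window lies inside it.
NDUFS1, chr2:206159445-206159604, minus strand: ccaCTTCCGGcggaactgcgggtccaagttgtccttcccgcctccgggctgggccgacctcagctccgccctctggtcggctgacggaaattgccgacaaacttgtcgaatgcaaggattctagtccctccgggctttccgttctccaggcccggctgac
NDUFA10, chr2:240025343-240025502, minus strand: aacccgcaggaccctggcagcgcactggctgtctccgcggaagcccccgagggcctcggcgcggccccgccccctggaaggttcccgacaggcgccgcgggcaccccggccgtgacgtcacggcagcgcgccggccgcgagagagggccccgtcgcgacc
NDUFB3, chr2:201071841-201072000, plus strand: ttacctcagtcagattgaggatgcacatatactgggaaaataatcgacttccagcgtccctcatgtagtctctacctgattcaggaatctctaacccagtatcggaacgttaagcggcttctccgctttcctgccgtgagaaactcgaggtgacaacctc
NDUFA8, chr9:122159780-122159939, minus strand: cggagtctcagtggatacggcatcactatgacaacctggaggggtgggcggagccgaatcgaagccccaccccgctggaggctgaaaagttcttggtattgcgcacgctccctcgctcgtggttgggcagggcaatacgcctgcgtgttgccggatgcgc
NDUFB4, chr3:120596176-120596335, plus strand: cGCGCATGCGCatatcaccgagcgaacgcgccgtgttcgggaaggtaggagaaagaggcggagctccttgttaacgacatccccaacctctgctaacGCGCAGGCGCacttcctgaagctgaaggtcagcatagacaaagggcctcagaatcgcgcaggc

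Motifs of 3 factors that textbooks place at promoters of respiratory genes were searched on both strands of the 250 bases before the start site. Of the 38 nuclear genes, 32 matched an entry in the RefSeq table. The ETS core CCGGAAG, bound by GABP, stood in 5 of 32 (15.6%), against 8.78% of 27326 promoters of all genes. The core of the NRF1 site, GCGC and TGCGC with 1 base of any kind between them, stood in 5 (15.6%, against 5.52%), and ATGGCGGC, a YY1 core, in 2 (6.2%, against 1.34%). At least 1 of the 3 was in 12 of 32 (37.5%), against 14.33% of all promoters. Of the genes printed, NDUFS1 holds 1 ETS match and NDUFB4 has 2 NRF1 matches, while NDUFA10, NDUFB3 and NDUFA8 hold none within the 160 bases shown. A match describes the letters only, and no binding was measured.

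Among the genes that rose with YTHDF1 KO, NDUFAB1, the mitochondrial acyl carrier protein that also sits in complex I, had 72.5, 73.8 and 66.3 CPM in the combined libraries, 68.6, 77.4 and 67.9 CPM in the YTHDF1 KO libraries and 54.6, 56.7 and 63.5 CPM in the siARID1A libraries, against 57.1, 49.1 and 63.2 CPM in the WT libraries. The combined and YTHDF1 KO libraries lay above all siARID1A and WT libraries. On the log2 scale it was higher than WT by 0.33 ± 0.12 (SE), adjusted p = 0.00251, in the combined group and 0.34 ± 0.12 (SE), adjusted p = 0.00264, with YTHDF1 KO, both of which held in all 21 other settings. Against siARID1A the combined group was higher, at 0.28 ± 0.081 (SE), adjusted p = 0.0125. That call was lost without combined 2 or siARID1A 1 (adjusted p 0.0577 to 0.0721).

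NDUFS4, an accessory subunit that fastens the N module to the peripheral arm, had 39.9, 37.7 and 39.3 CPM in the combined libraries, 34.7, 42.8 and 37.6 CPM in the YTHDF1 KO libraries and 31.3, 32.7 and 31.7 CPM in the siARID1A libraries, against 34.8, 23.8 and 31.01 CPM in the WT libraries. The combined libraries lay above all WT libraries, while 1 YTHDF1 KO library reached into the WT range. Its log2 fold change was 0.38 ± 0.16 (SE), adjusted p = 0.00346, in the combined group and 0.36 ± 0.19 (SE), adjusted p = 0.00716, with YTHDF1 KO. Both also passed without WT replicate 2, at 0.25 and 0.23. The YTHDF1 KO call was lost without YTHDF1 KO 2 (adjusted p = 0.0685). Against siARID1A the combined group was higher, at 0.29 ± 0.032 (SE), adjusted p = 0.0346, a call lost without combined 1, 2 or 3 or siARID1A 1, 2 or 3 (adjusted p 0.0538 to 0.0972), and with chromosomes 2 and 9 left out of the scaling or a replicate block (adjusted p 0.051 to 0.0595).

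NDUFA3, a small subunit of the ND1 module, had 31.95, 28.2 and 23.8 CPM in the combined libraries, 32.4, 35.9 and 31.9 CPM in the YTHDF1 KO libraries and 19.2, 20.6 and 18.3 CPM in the siARID1A libraries, against 25.3, 13.6 and 25.8 CPM in the WT libraries. The YTHDF1 KO libraries were above every WT and siARID1A library. Its log2 fold change with YTHDF1 KO was 0.64 ± 0.31 (SE), adjusted p = 0.015, and 0.40 without WT replicate 2, which was the lowest library by far. That call was lost without YTHDF1 KO 2 (adjusted p = 0.0556), and with only the compared groups fitted (adjusted p = 0.0768). The combined group was higher than siARID1A, at 0.53 ± 0.13 (SE), adjusted p = 0.0458, a call lost without combined 1 or 2, YTHDF1 KO 1, 2 or 3, or siARID1A 1, 2 or 3 (adjusted p 0.0573 to 0.162), and with chromosomes 2 and 9 left out of the scaling or DESeq2 (adjusted p 0.0577 to 0.0593).

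NDUFB4, a subunit of the ND4 module, was higher in all 3 changed groups. It had 105, 94.2 and 90.9 CPM in the combined libraries, 74.1, 83.2 and 79.7 CPM in the YTHDF1 KO libraries and 81.6, 81.1 and 87.6 CPM in the siARID1A libraries, against 73.9, 49.6 and 67.96 CPM in the WT libraries. The combined libraries were the highest 3 of 12. All libraries of the YTHDF1 KO and siARID1A groups also lay above the WT libraries, 1 of YTHDF1 KO only just. Against WT, NDUFB4 had a log2 fold change of 0.60 ± 0.19 (SE), adjusted p = 6.19e-05, in the combined group, 0.31 ± 0.18 (SE), adjusted p = 0.0224, with YTHDF1 KO and 0.39 ± 0.18 (SE), adjusted p = 0.00468, with siARID1A. With WT replicate 2 left out the values were 0.45, 0.17 and 0.25, and that of YTHDF1 KO no longer passed. The YTHDF1 KO call was lost without YTHDF1 KO 2 or 3 or WT 2 (adjusted p 0.0595 to 0.0887), and with only the compared groups fitted (adjusted p = 0.0749). The combined group also lay above YTHDF1 KO, at 0.29 ± 0.078 (SE), adjusted p = 0.0481, and this call was lost without combined 1, 2 or 3, YTHDF1 KO 1, 2 or 3, siARID1A 1, 2 or 3, or WT 3 (adjusted p 0.0584 to 0.198), and with chromosomes 2 and 9 left out of the scaling or a replicate block (adjusted p 0.0507 to 0.0516).

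With siARID1A the smallest p among nuclear genes belonged to NDUFV1, the core subunit that binds NADH and the flavin. NDUFV1 had 103, 100.3 and 86.5 CPM in the combined libraries, 115, 118 and 109.6 CPM in the YTHDF1 KO libraries and 97.9, 96.6 and 96.1 CPM in the siARID1A libraries, against 147, 120.3 and 121 CPM in the WT libraries. The siARID1A libraries were all below the WT and YTHDF1 KO libraries, and the combined libraries were low as well. Set against WT, its log2 fold change was -0.42 ± 0.12 (SE), adjusted p = 8.15e-05, in the combined group and -0.42 ± 0.097 (SE), adjusted p = 0.000127, with siARID1A, and both held in all 21 other settings. The combined group was lower than YTHDF1 KO, at -0.24 ± 0.084 (SE), adjusted p = 0.0282. That call was lost without combined 3 or YTHDF1 KO 1 or 2 (adjusted p 0.0814 to 0.196), and with library totals as the only scaling (adjusted p = 0.0629).

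NDUFA5, an accessory subunit of the Q module, had 36.4, 32.7 and 36.4 CPM in the combined libraries, 40.1, 44.02 and 39.03 CPM in the YTHDF1 KO libraries and 27.7, 27.3 and 32.3 CPM in the siARID1A libraries, against 33.7, 36.4 and 44.9 CPM in the WT libraries. The siARID1A libraries were below all others. With siARID1A its log2 fold change was -0.39 ± 0.15 (SE), adjusted p = 0.00208, a call that held in all 21 other settings, and the combined group was higher than siARID1A, at 0.27 ± 0.094 (SE), adjusted p = 0.0345. That call was lost without combined 1 or 3 or siARID1A 1 or 2 (adjusted p 0.097 to 0.124), and with chromosomes 2 and 9 left out of the scaling (adjusted p = 0.061). In the combined group against WT the value was -0.12, which did not pass.

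NDUFB2, a subunit of the ND5 module, had 33.7, 37.6 and 31.8 CPM in the combined libraries, 40.8, 46.2 and 42.5 CPM in the YTHDF1 KO libraries and 34.1, 30.03 and 29.8 CPM in the siARID1A libraries, against 48.9, 33.6 and 42.5 CPM in the WT libraries. The siARID1A and combined libraries were low, and WT replicate 2 lay among them. Fold changes against WT were, in log2 units, -0.28 ± 0.17 (SE), adjusted p = 0.0326, in the combined group and -0.41 ± 0.17 (SE), adjusted p = 0.00283, with siARID1A. They were, without WT replicate 2, -0.41 and -0.53. Against YTHDF1 KO the combined group was lower, at -0.33 ± 0.089 (SE), adjusted p = 0.026. The combined call against WT was lost without combined 1 or 3 or WT 1 or 3 (adjusted p 0.0797 to 0.269), and with library totals as the only scaling or only the compared groups fitted (adjusted p 0.066 to 0.259). The one against YTHDF1 KO was lost without combined 1 or 3 or YTHDF1 KO 2 or 3 (adjusted p 0.0587 to 0.125). Genes on the other strand, among them NDUFB2-AS1, cover 35.1% of its exon bases.

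NDUFB8, a membrane-arm subunit often used on blots as a sign of assembled complex I, had 8.43, 7.08 and 6.83 CPM in the combined libraries, 6.86, 7.13 and 5.75 CPM in the YTHDF1 KO libraries and 7.399, 8.64 and 7.77 CPM in the siARID1A libraries, against 5.82, 3.96 and 5.93 CPM in the WT libraries. The siARID1A and combined libraries lay above all WT libraries. The test against WT gave log2 fold changes of 0.51 ± 0.21 (SE), adjusted p = 0.00902, in the combined group and 0.61 ± 0.20 (SE), adjusted p = 0.00301, with siARID1A. The combined call was lost without combined 1 or WT 2 (adjusted p 0.0567 to 0.0667). Another gene on the same strand covers 33.8% of its exon bases, so its count is uncertain.

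NDUFC2, a subunit of the ND2 module, had 13.4, 12.04 and 12.01 CPM in the combined libraries, 11.6, 11.2 and 9.77 CPM in the YTHDF1 KO libraries and 12.02, 11.5 and 12.7 CPM in the siARID1A libraries, against 9.64, 7.54 and 9.48 CPM in the WT libraries. The siARID1A and combined libraries lay above WT, at log2 fold changes of 0.49 ± 0.12 (SE), adjusted p = 0.00136, in the combined group and 0.44 ± 0.12 (SE), adjusted p = 0.00425, with siARID1A, and both held in all 21 other settings. NDUFA11, a membrane subunit that also contacts complex III in supercomplexes, had 6.55, 5.998 and 5.87 CPM in the combined libraries, 8.16, 7.54 and 6.99 CPM in the YTHDF1 KO libraries and 5.32, 5.198 and 6.26 CPM in the siARID1A libraries, against 7.69, 8.42 and 7.69 CPM in the WT libraries. It was the 1 nuclear gene in which WT replicate 2 lay above both other WT libraries, and its siARID1A and combined libraries lay below all WT libraries. Its values against WT, as log2 fold changes, were -0.37 ± 0.065 (SE), adjusted p = 0.0222, in the combined group and -0.51 ± 0.094 (SE), adjusted p = 0.00361, with siARID1A. The combined call was lost without combined 2 or 3 or WT 2 (adjusted p 0.0649 to 0.0776), and with library totals as the only scaling or no filter on low counts (adjusted p 0.0683 to 0.166). NDUFC2 and NDUFA11 share 16.3% and 9.7% of their exon bases with another gene on the same strand, for NDUFC2 the readthrough gene NDUFC2-KCTD14.

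**Figure D5:**
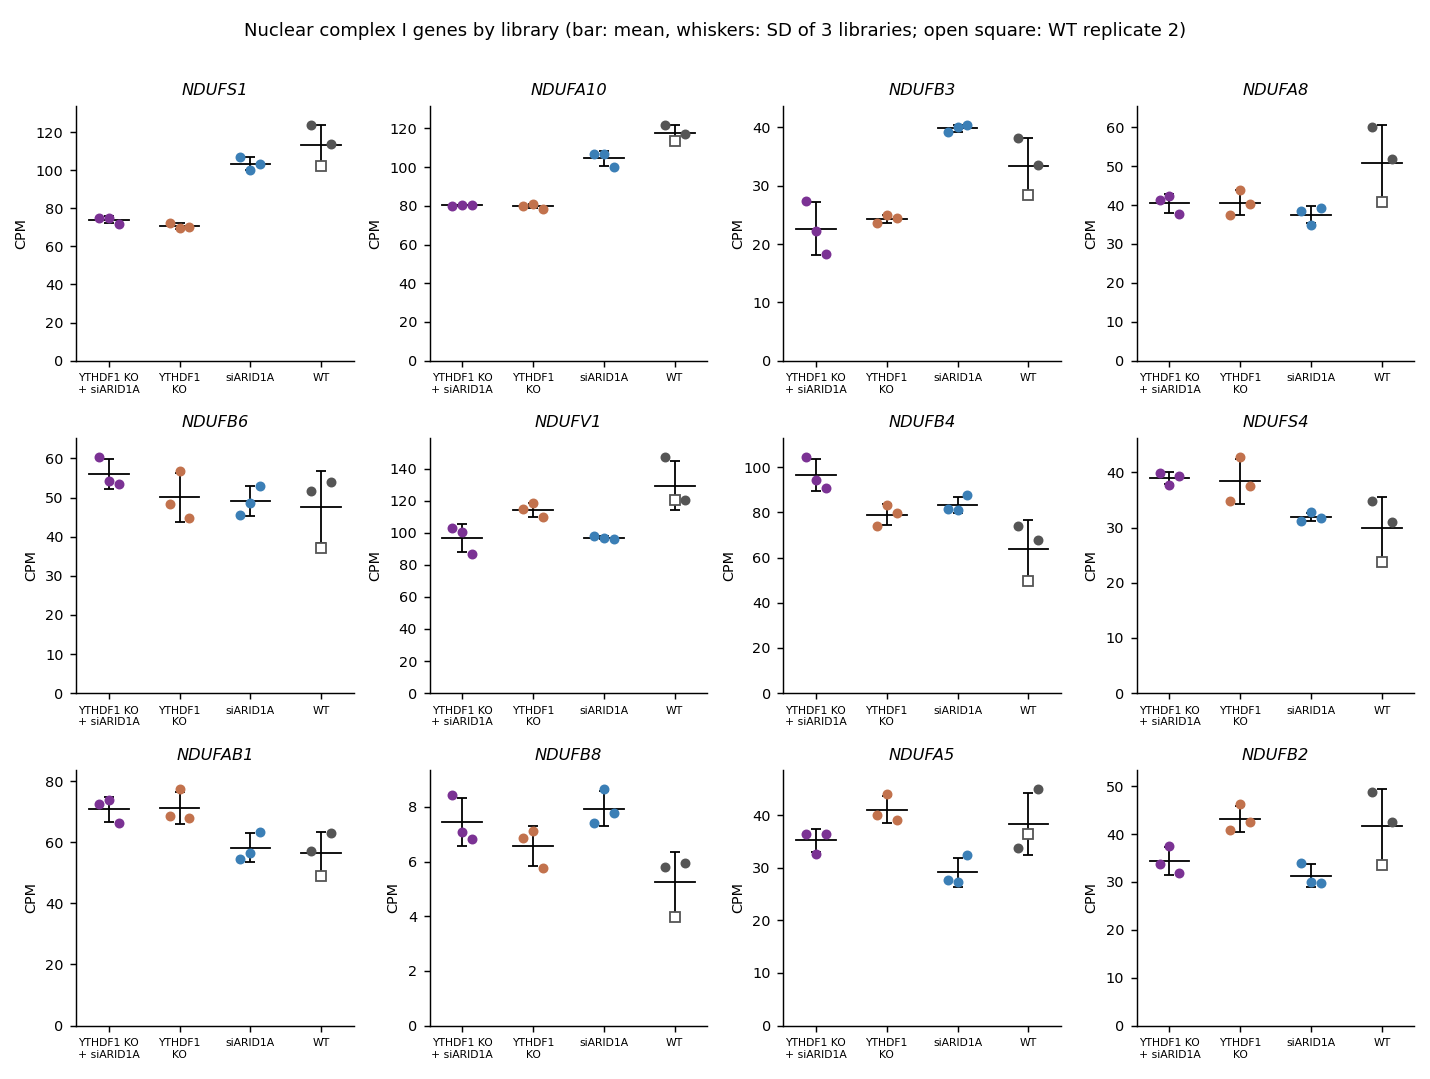
Each panel is 1 nuclear complex I gene, with CPM on the y axis and the 4 groups on the x axis. Dots are libraries, bars are means, whiskers the SD of 3 libraries and the open square WT replicate 2. NDUFS1, NDUFA10 and NDUFB3 are low in both knockout groups, NDUFV1 and NDUFB2 in both siARID1A groups, and NDUFB4 is highest in the combined group.

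Further calls were NDUFC1, higher with siARID1A at a log2 fold change of 0.33, and NDUFA12, higher in the combined group at 0.27. Without WT replicate 2 the calls of NDUFC1 and NDUFA12 were lost, at 0.17 and 0.13. Taking all settings, NDUFC1 was lost without siARID1A 1 or 3 or WT 2 (adjusted p 0.0743 to 0.189), and with only the compared groups fitted (adjusted p = 0.0526). NDUFC1 also shares 18.5% of its exon bases with MGARP on the same strand. NDUFA12 was lost without combined 1 or 2, YTHDF1 KO 1, 2 or 3, siARID1A 1, 2 or 3, or WT 2 or 3 (adjusted p 0.0541 to 0.264), and with chromosomes 2 and 9 left out of the scaling or only the compared groups fitted (adjusted p 0.0949 to 0.107). NDUFV2, an iron-sulfur core subunit, was at 1.28 CPM in WT, lower with siARID1A at -0.96 and higher in the combined group than with siARID1A at 0.99. Its siARID1A call against WT was lost without siARID1A 1 or 3 or WT 2 or 3 (adjusted p 0.0686 to 0.164), and with only the compared groups fitted (adjusted p = 0.061). The call of the combined group against siARID1A was lost without combined 1 or 3 or siARID1A 1 or 3 (adjusted p 0.0531 to 0.266), and with a replicate block (adjusted p = 0.0521). NDUFV2 has 28.4% of its exon bases under another gene of the same strand, NDUFA7 (0.320 CPM in WT) 32.3% and NDUFA13 (1.07 CPM) 21%, so the levels of these 3 are uncertain. A level near 1 CPM for subunits present in every assembled complex stands beside that overlap, and its part in these levels was not tested.

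By module, the N module had 2 of 10 nuclear genes past the threshold with YTHDF1 KO (NDUFS1 lower, NDUFS4 higher), 2 with siARID1A (NDUFV1 and NDUFV2, both lower) and 4 in the combined group. In the membrane arm, the ND1 module had 2, 1 and 1 of 4 nuclear genes past the threshold with YTHDF1 KO, with siARID1A and in the combined group. The ND2 module had 1, 4 and 3 of 6, the ND4 module 1, 1 and 1 of 6 and the ND5 module 2, 2 and 4 of 6. Of all genes, 40.4%, 45.2% and 51.5% passed in these comparisons. In the same order, the counts without WT replicate 2 were 3, 2 and 3 in the N module, 2, 2 and 1 in ND1, 2, 3 and 2 in ND2, 0, 2 and 1 in ND4 (edgeR, with 2 genes of ND4 at an unadjusted p under 0.05 with YTHDF1 KO) and 3, 2 and 3 in ND5, where 37.6%, 41.4% and 48.5% of all genes passed. With all libraries, where one of these modules had 2 or more calls in a comparison with WT they went both ways, except in the N module with siARID1A, where both were lower. NDUFA4, which carries the name of the family but is now counted to complex IV, passed in no pairwise comparison, at 0.22 in the combined group, 0.21 with YTHDF1 KO and 0.16 with siARID1A.

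For the interaction, 1 of the 38 nuclear genes passed (2.63%), where 17.1% of all genes did. It was NDUFA8, at 0.43 ± 0.19 (SE), adjusted p = 0.0484. Its level was low with YTHDF1 KO and with siARID1A but not lower with both, as the values above show. The 100 genes around it had a median interaction of 0.53, and the 712 genes of chromosome 9 a median of 0.39, against 0.024 over all genes. The call was lost without combined 1 or 2, YTHDF1 KO 1 or 3, siARID1A 1, 2 or 3, or WT 1 or 3 (adjusted p 0.0573 to 0.146), and with RLE factors, DESeq2 or a replicate block (adjusted p 0.054 to 0.0675), and DESeq2 called 0 of 38. Of the MT-ND genes 0 passed with edgeR or DESeq2 on the CPM scale, and 1 had an unadjusted p under 0.05. Without WT replicate 2 the interaction passed for MT-ND4 at 0.26 and MT-ND4L at 0.35, where 16.9% of all genes passed.

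Assembly factors are proteins that build complex I without staying in it. Of 20 assembly factors, 3 were higher and 2 lower with YTHDF1 KO (25%), 4 and 6 with siARID1A (50%) and 3 and 6 in the combined group (45%). Of all genes tested, 40.4%, 45.2% and 51.5% passed in the same order. With WT replicate 2 left out there were 2 and 2 (20%), 3 and 7 (50%), and 3 and 7 (50%). The shares of all genes were then 37.6%, 41.4% and 48.5%. TIMMDC1, a membrane-arm assembly factor, was higher in all 3 groups, at log2 fold changes of 0.32 in the combined group, 0.31 with YTHDF1 KO and 0.25 with siARID1A. TMEM70, which assists both complex I and ATP synthase, was higher at 0.49, 0.32 and 0.23 in the same order. NDUFAF7, a methyltransferase that lies on chromosome 2, was lower in the combined group at -0.52 and with YTHDF1 KO at -0.52. NUBPL, needed for iron-sulfur clusters of complex I, was lower with siARID1A at -0.52, and DMAC1, on chromosome 9, at -0.53.

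In each other complex, the share of genes past the threshold against WT was no higher than that of all genes tested when all 12 libraries were used. For complex IV and ATP synthase this did not hold without WT replicate 2. Complex II had 0 of 4 in the combined group and with YTHDF1 KO by edgeR (1 and 0 at an unadjusted p under 0.05), and 1 of 4 lower with siARID1A, SDHB at -0.45. Complex III had 2 of 9 lower in the combined group, 1 with YTHDF1 KO and 2 with siARID1A, and CYC1, its cytochrome c1, was in each of these, at -0.48, -0.29 and -0.36. Complex IV had 3 higher and 2 lower of 10 in the combined group, 2 and 1 with YTHDF1 KO, and 0 with siARID1A by edgeR (2 at an unadjusted p under 0.05). ATP synthase had 1 higher and 5 lower of 15 in the combined group and likewise with YTHDF1 KO, and 1 higher and 3 lower with siARID1A. Of these, ATP5MC3 and COX5B lie on chromosome 2, and both were lower: ATP5MC3 at -0.70 in the combined group and -0.74 with YTHDF1 KO, and COX5B at -0.37 and -0.60. The 6 other mitochondrial mRNAs had 0 past the threshold against WT in any group by edgeR, with 1 at an unadjusted p under 0.05 in each. With WT replicate 2 left out, 4 of these 6 were lower in the combined group, 2 with YTHDF1 KO and 6 with siARID1A. Complex IV then had 3 higher and 3 lower of 10 in the combined group, 1 and 7 with YTHDF1 KO, and 0 and 3 with siARID1A. ATP synthase had 1 higher and 8 lower of 15, 0 and 6, and 1 and 7 in the same order, where 48.5%, 37.6% and 41.4% of all genes passed. Complex III had 3, 2 and 3 of 9 lower, and complex II 1, 0 and 1 of 4.

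Among genes that make or handle mitochondrial RNA, and among nuclear regulators of respiration, more calls against WT were lower than higher in every group. Of 24 genes of mitochondrial transcription and RNA handling, 9 were lower and 1 higher in the combined group, 7 and 2 with YTHDF1 KO, and 11 and 2 with siARID1A. Of all genes, 25.9% were lower and 25.6% higher in the combined group, 20.8% and 19.6% with YTHDF1 KO, and 23% and 22.1% with siARID1A. Leaving out WT replicate 2 gave 9 and 4, 6 and 3, and 11 and 2, where 48.5%, 37.6% and 41.4% of all genes passed in either direction. POLRMT, the mitochondrial RNA polymerase, averaged 139 ± 7.09 CPM in the combined, 144 ± 1.698 CPM in the YTHDF1 KO and 115 ± 1.95 CPM in the siARID1A libraries, against 208 ± 19.7 CPM in the WT libraries (SD, n = 3 each). Its log2 fold changes were -0.59, -0.53 and -0.86, all past the threshold. LRPPRC, which stabilises mitochondrial mRNAs and lies on chromosome 2, was lower in the combined group at -0.30 and with YTHDF1 KO at -0.33. FASTKD1 and FASTKD2, also of chromosome 2 and known for handling mitochondrial RNA, were lower in all 3 groups, FASTKD1 at -0.90, -0.58 and -0.57.

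Of 10 nuclear regulators, 8 were lower and 1 higher in the combined group, 7 and 1 with YTHDF1 KO, and 7 and 0 with siARID1A. When WT replicate 2 was left out they were 7 and 1, 5 and 1, and 6 and 0, where 48.5%, 37.6% and 41.4% of all genes passed. PPARGC1A, a coactivator that promotes mitochondrial biogenesis, averaged 1.01 ± 0.138 CPM in the combined and 0.508 ± 0.155 CPM in the YTHDF1 KO libraries, against 2.96 ± 0.576 CPM in the siARID1A and 3.17 ± 0.636 CPM in the WT libraries (SD, n = 3 each). Its log2 fold change was -1.65 in the combined group and -2.64 with YTHDF1 KO, from a low level. MYC was lower in every group, at -0.89, -0.60 and -0.58, as was YY1 at -0.36, -0.28 and -0.40. HIF1A, which lowers the use of respiration when oxygen is scarce, was the 1 regulator that was higher, in the combined group at 0.58 and with YTHDF1 KO at 0.38. These lists were chosen with earlier results of the same libraries known, and the share of all genes past the threshold in each comparison (51.5% in the combined group, 40.4% with YTHDF1 KO, 45.2% with siARID1A) is their background.

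Copies of mitochondrial genes in the nuclear genome can share reads with them. Among annotated MT-ND pseudogenes, MTND2P28 on chromosome 1 had the most counts, 216 to 587 per library, against 94853 to 201946 counts per library of MT-ND2.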

How the data were processed

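RNA of 12 A549 libraries was measured, 3 in each of 4 groups taken from the genotype labels. Total RNA went into a stranded library kit, per the labels. The authors trimmed reads with Trim Galore 0.6.6, aligned them with STAR 2.7.0d to GRCh38 and counted them with featureCounts 2.0.1, per the submitters' processing notes, which also name edgeR 3.32.1. The deposited table holds raw counts per Ensembl gene, with 12 columns, all used. The strand setting and annotation release are not given in the sources used here, so overlapping and antisense genes are uncertain. Reads shared between mitochondrial genes and their nuclear copies may be lost or split by such counting. The labels call the libraries biological replicates, but nothing says that they came from separate cultures, so p-values measure the spread between libraries only.

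Symbols were matched for 60261 identifiers, and positions and gene types came from GENCODE 29 (58542 identifiers). In R 4.3.3, edgeR 4.0.16 fitted all 12 libraries with 1 coefficient per group, after TMM scaling (factors 0.912 to 1.055) and filterByExpr, which kept 18524 genes and dropped 42093. The robust quasi-likelihood F test was two-sided, with Benjamini-Hochberg adjustment over all genes tested in each of 6 comparisons, and calls were made at 0.05. The biological coefficient of variation was 9.44%, from a common dispersion of 0.0089. Standard errors come from the replicate SDs of log2 CPM with a prior count of 2. On the scale of mitochondrial mRNA they come from log2 shares without a prior count. They are not the spread used in the edgeR test, so an SE and its adjusted p need not match. The fit was checked on simulated counts. Levels between genes were compared per kilobase of the transcript with the longest coding sequence. Promoters came from a RefSeq table of GRCh38.p14 and the mitochondrial sequences from GENCODE 29 transcripts. Alternatives were DESeq2 1.42.0, other scalings and filters, a replicate block and leaving out each library. Scaling mitochondrial genes to the 13 mitochondrial mRNAs was added after the data were seen.

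The members and the gene lists were chosen with earlier results of these data known. Every member but 1, which is not reported here, could be named. Values in every library are given for the MT-ND genes, the members on chromosomes 2 and 9 and, in each comparison, up to 6 called nuclear members of smallest p. From the other lists, a comparison could name the 4 called genes of smallest p in each. MT-CYB, NDUFC1, NDUFA12 and NDUFV2 were named after their values were seen. Of 25 genes listed for mitochondrial transcription and RNA handling, 24 were matched.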

Additional observations from a re-analysis of the deposited data

Results flagged for a closer look

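In 3 results the effect of siARID1A differed between YTHDF1 KO and WT cells by a test of the interaction. For NDUFA8 the difference was 0.43 in log2 units (adjusted p = 0.0484, edgeR). With siARID1A its log2 fold change was -0.005 in YTHDF1 KO cells and -0.44 in WT cells, and all 3 siARID1A libraries lay below all WT libraries. The call was lost without combined 1 or 2, YTHDF1 KO 1 or 3, siARID1A 1, 2 or 3, or WT 1 or 3 (adjusted p 0.0573 to 0.146), and with RLE factors, DESeq2 or a replicate block (adjusted p 0.054 to 0.0675), and the genes around NDUFA8 had a median interaction of 0.53.

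The other 2 concern how mitochondrial mRNA was divided. Scaled to the 13 mitochondrial mRNAs, MT-ND5 differed by -0.38 (adjusted p = 0.00925) and MT-ND6 by -0.34 (adjusted p = 0.0409). With siARID1A the log2 fold change of MT-ND5 was -0.005 in YTHDF1 KO cells and 0.38 in WT cells, and that of MT-ND6 was 0.24 and 0.58. On the CPM scale neither interaction passed, at -0.40 for MT-ND5 and -0.38 for MT-ND6. Without WT replicate 2 the lowest interaction of any MT-ND gene on that scale was -0.24, and the 2 that passed were both positive. Whether antisense reads move with these values was not tested. ARID1A itself passed for the interaction, at 0.38 (adjusted p = 0.0278, edgeR). Its log2 fold change with siARID1A was -1.565 in YTHDF1 KO cells and -1.948 in WT cells. The part of this difference in the 3 results was not tested.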

How the results depend on the processing

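Counts of nuclear genes past the threshold stayed within 1.5 times in the comparisons of siARID1A and the combined group with WT, in all settings. Leaving out each library in turn gave 5 to 12 nuclear genes with YTHDF1 KO, 9 to 17 with siARID1A, 10 to 17 in the combined group, 0 to 4 against YTHDF1 KO, 3 to 12 against siARID1A and 0 to 2 for the interaction. The MT-ND genes gave 0 to 6, 1 to 5, 0 to 6, 0 to 5, 1 to 4 and 0 to 2 in the same order. Calls over all genes varied as well. In that order they were 6384 to 7528, 7186 to 8285, 8531 to 9588, 3065 to 5093, 5571 to 7195 and 2498 to 3253. Each highest MT-ND count came without WT replicate 2. The nuclear counts were lowest without YTHDF1 KO replicate 2 (5), siARID1A replicate 3 (9) and combined replicate 1 (10), and the highest in the 3 comparisons with WT came without WT replicate 1 (12, 17 and 17). The lowest against siARID1A came without siARID1A replicate 1 (3), and the lowest against YTHDF1 KO (0) without YTHDF1 KO replicate 2 or combined replicate 3. MT-ND3 in the combined group against WT ran from -0.17 without WT replicate 2 to 0.45 without WT replicate 1, against 0.19 with all libraries.

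With library totals, nuclear calls with YTHDF1 KO were 14, where 7782 of all genes passed. In the combined group with library totals the 1 MT-ND call was MT-ND2, higher, in place of MT-ND4, lower, and the share of all called genes that were higher was 63.4%. In the siARID1A comparison the nuclear split of 5 higher and 7 lower became 9 and 6 with library totals, 8 and 6 with RLE factors or no filter, and 8 and 7 with DESeq2. Over all genes, 57.1% of 8197 calls were higher with library totals and 52.2% of 8328 with RLE factors. With no filter 51.9% of 8126 were higher, and with DESeq2 52.2% of 8516. Fitting only the groups compared gave 5 nuclear and 5 MT-ND calls against YTHDF1 KO, and 0 MT-ND calls in the YTHDF1 KO and combined comparisons with WT. Over all genes it gave 5912, 6949 and 8724 calls in that order, against 4331, 7489 and 9537 in the main fit. Leaving chromosomes 2 and 9 out of the scaling gave 5 nuclear calls against siARID1A, 0 MT-ND calls with YTHDF1 KO and 2 with siARID1A. Of all genes, 6479, 7514 and 8380 passed in these comparisons. Without a filter on low counts there were 0 MT-ND calls with YTHDF1 KO, 1 against siARID1A and 1 for the interaction, and 2 nuclear calls for the interaction. Calls over all genes were 7308 with YTHDF1 KO, 6323 against siARID1A and 3141 for the interaction. DESeq2 gave 2 MT-ND calls with siARID1A, where 8516 of all genes passed. For the interaction, DESeq2, RLE factors and the replicate block each gave 0 nuclear calls, where 3428, 3120 and 2979 of all genes passed. Without WT replicate 2 and with mitochondrial genes left out of the scaling, MT-ND calls were 6 with YTHDF1 KO, 5 with siARID1A, 5 in the combined group, 5 against YTHDF1 KO and 2 for the interaction. Calls over all genes were then 7206, 7915, 9260, 5092 and 3232. Scaled to mitochondrial mRNA, MT-ND calls were 3, 3, 3, 1 and 2, where 7499, 8378, 9549, 4343 and 3174 of all genes passed. Leaving mitochondrial genes out of the scaling alone changed no call of a member. The causes of these changes were not tested.

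Replicate numbers do not pair the libraries: over 18 pairs, same-numbered libraries correlated at -0.042 to 0.033 in their deviations from the group means. With the replicate block there were 2 MT-ND calls with siARID1A and 0 in the combined group against WT, where 8167 and 9346 of all genes passed. Depth did not limit the MT-ND genes, but NDUFA7, NDUFA13 and NDUFV2, near or below 1 CPM, are measured least firmly. With 3 libraries in a group, and 2 in WT once replicate 2 is left out, small changes can be missed.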

Other observations

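The 2 mitochondrial ribosomal RNAs, which are read from the same strand as every MT-ND gene but MT-ND6 and lie upstream of them, took 1.42% to 1.53% of counts in the siARID1A libraries. They took 1.09% to 1.22% in the combined libraries and 0.987% to 1.03% in the YTHDF1 KO libraries, against 0.715% to 1.38% in the WT libraries. The siARID1A libraries lay above all others, without a test, and how well the library kit removed or kept ribosomal RNA is not known. The MT-ND genes made up 33.7% to 35.0% of mitochondrial mRNA in the combined, 34.5% to 35.1% in the YTHDF1 KO and 36.4% to 36.9% in the siARID1A libraries, against 35.4% to 37.7% in the WT libraries. Both knockout groups lay below all siARID1A and WT libraries in this share.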
